A study of Mus musculus with 12 samples.

Results

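To describe gene expression in mammary tumors under the rexinoid V-125, 4 tumors from V-125-fed mice were set against 4 tumors from mice on the control diet, 8 of the 12 tumors sequenced in the study. The other tumors came from mice given a second agonist and were not used. All mice were MMTV-Neu females, in which the MMTV promoter drives the Neu (rat Erbb2) oncogene in the mammary epithelium, and all carried a mammary tumor when powdered chow was started. V-125 was mixed into the chow at 100 mg per kg of diet and given for 10 days. Control mice received the same chow with the ethanol and oil vehicle alone. Each library was made from poly(A) RNA of a piece of 1 frozen tumor, so malignant, vascular, immune and connective tissue RNA were measured together, and fewer cells of a type and less RNA per cell cannot be told apart.

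The members are the 1589 genes listed for this comparison, with the read count of every gene in each of the 8 tumors. Genes were listed because they differed between the groups, and a gene that is absent from the list has no value here. The differences below are therefore a description of listed genes, and a call states how large and how even a difference was over the tumors. Depth ran from 15571690 to 22574865 reads on genes per tumor, of which listed genes took 12.7 to 17.9%. Levels are normalized counts, the read count divided by 1 size factor per tumor, unless another scale is named. The luminal markers Epcam and Cdh1 were abundant in all 8 tumors, with Epcam at 28485 normalized counts or more in each. The other defining keratins of luminal cells and the Neu transgene were not among the listed genes.

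The retinoid X receptor (RXR) is a nuclear receptor that binds DNA together with a partner such as the liver X receptor (LXR), a peroxisome proliferator-activated receptor (PPAR) or the retinoic acid receptor. Agonists of RXR, called rexinoids, can therefore switch on genes of several partners, many of which handle lipids. Among the best known are genes for fatty acid synthesis, desaturation and oxidation. Sterol and fatty acid synthesis are also controlled by the SREBP transcription factors, which Insig1 holds back when sterols are plentiful.

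Of the 1589 listed genes, 817 had a higher mean and 772 a lower mean in the V-125 tumors. In 614 genes, or 38.6% of those listed, the 4 V-125 tumors and the 4 control tumors did not overlap, with 335 genes higher (21.1%) and 279 lower (17.6%) after V-125. These shares are the background for the counts of non-overlapping members given for each gene list. For a single gene, such a separation is the most extreme result possible when the 8 tumors are divided in all 70 ways into 4 and 4. For a gene not chosen by its values, it would give p = 0.0286 in a two-sided exact permutation test. Listed genes were chosen for differing between these same tumors, so this p does not hold for them. After a filter on low counts, 1333 genes were tested with edgeR. A gene was called if its edgeR adjusted p was under 0.05 and its log2 fold change lay above 1 or below -1, which held for 66 genes (4.95%), 34 of them higher (2.55%) and 32 lower (2.4%). Of the 66 called genes, 64 had groups that did not overlap. Their edgeR adjusted p-values lay between 0.0386 and 0.0498, so the calls sat close to the threshold. No gene was called by edgeR when 1 of V-125 replicate 2, V-125 replicate 4 or control replicate 2 was left out, 1 gene was called without control replicate 4, 21 without control replicate 1 and 148 without control replicate 3. With all tumors, 368 genes passed an unadjusted p of 0.05 and the fold threshold in edgeR, DESeq2 called 375 and limma-voom 76. When the edgeR p-values were adjusted for as many tests as there are annotated protein-coding genes, 21951, none was called and the smallest adjusted p was 0.636. The variance behind these p-values came from the listed genes alone. That adjustment is therefore not a test over the genome, and it does not show that no gene would pass one.

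**Figure D1:**
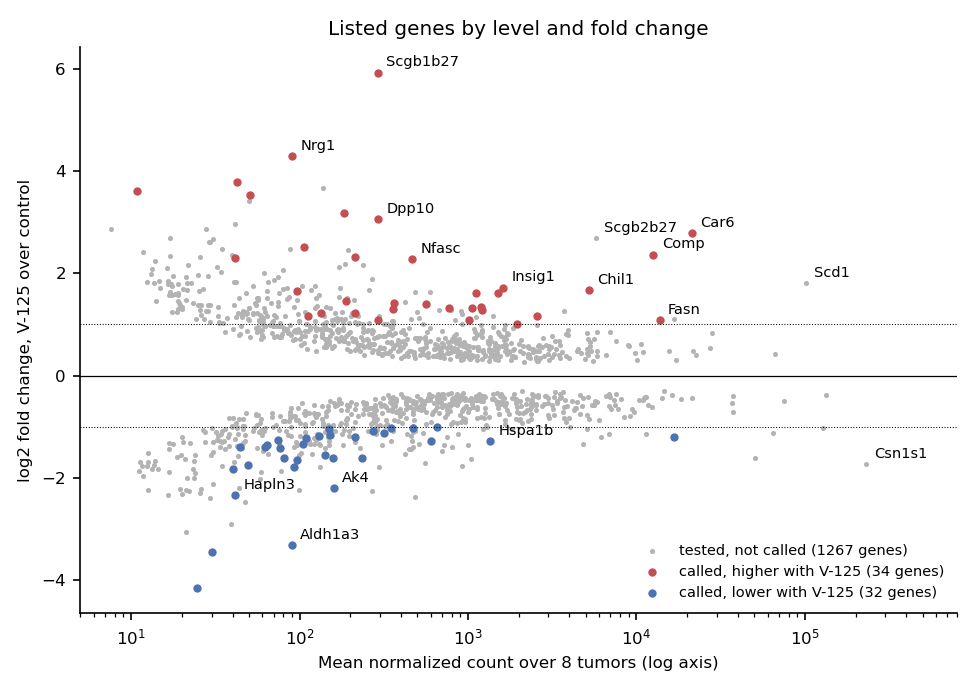
Each point is 1 of the 1333 tested genes, placed by its mean normalized count over the 8 tumors (log axis) and its log2 fold change, V-125 over control, from edgeR. Dotted lines mark a log2 fold change of 1 in each direction, the 34 called higher genes are red and the 32 called lower genes blue. The empty band around 0 reflects that only differing genes are listed, and the most abundant called genes are Car6, C530043A13Rik, Fasn and Comp.

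The largest gains in the number of reads fell on genes for lipid synthesis and secreted proteins. Scd1, the stearoyl-CoA desaturase that makes monounsaturated fatty acids, took 1.02, 0.592, 1.18 and 0.714% of all reads on genes in the 4 V-125 tumors (values are always in the order of replicates 1 to 4), against 0.496, 0.174, 0.065 and 0.26% in the control tumors. All V-125 tumors were above all control tumors, with means of 8746 ± 2687 and 2488 ± 1830 CPM (reads scaled to a total of 1000000 reads on genes, SD, n = 4 per group), yet the gene was not called (log2 fold change 1.82 ± 0.53 SE, edgeR adjusted p = 0.0530). Scd2, a related desaturase, was also higher without overlap, at a log2 fold change of 1.10 ± 0.31. Per length, Scd1 exceeded Scd2 in both groups, with mean FPKM of 1809 and 230.4 after V-125 and of 514.5 and 107.5 in control tumors.

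Car6, a secreted carbonic anhydrase, was high in all 4 V-125 tumors. Its normalized counts were 38599, 32786, 37210 and 40669 in the V-125 tumors and 3298, 2921, 12218 and 3158 in the control tumors. The groups did not overlap although control replicate 3 stood above the other controls, and the log2 fold change was 2.79 ± 0.47 (called). Comp, a protein of cartilage and other matrices, was at 8382, 21239, 33187 and 21612 after V-125 and at 791, 7270, 4500 and 3775 in controls, a log2 fold change of 2.37 ± 0.61 (called). The lowest V-125 tumor lay only slightly above the highest control tumor. Etnk1, which phosphorylates ethanolamine for phospholipid synthesis, Cpd, a carboxypeptidase, and Fasn completed the non-overlapping genes among the 8 with the largest gain in reads. The glycolytic aldolase Aldoc gained 1066 CPM on average, but its groups overlapped.

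Milk and other secretory genes lost the most reads. Csn1s1, the alpha-S1 casein of milk, was at 144230, 231316, 11030 and 37735 normalized counts in the V-125 tumors and at 503854, 284145, 248201 and 376538 in controls. The groups did not overlap, but the V-125 tumors spanned a much wider fold range than the controls, and the gene was not called (log2 fold change -1.74 ± 0.75, edgeR adjusted p = 0.0689). Wfdc18, a secreted relative of whey acidic protein, had means of 4672 ± 1482 CPM after V-125 and 9490 ± 4722 in controls (SD, n = 4). Lcn2, a siderophore carrier, had means of 2251 ± 420.4 and 4910 ± 2343, and both genes were lower without overlap and not called. Mfge8, a coat protein of milk fat globules, and Trf, transferrin, overlapped between groups. The other losses were in mt-Co1 of the mitochondrial genome, which overlapped, and in the cytoskeletal actins Actb and Actg1, which did not. Csn1s1, Wap, Mfge8 and Wfdc18 together took 1.45, 2.11, 0.563 and 0.644% of reads in the V-125 tumors and 5.3, 2.66, 2.38 and 2.99% in controls. These genes were summed with earlier results of these data known, and Wfdc18 is outside the milk list described next. Of a list of 20 milk and alveolar genes, 3 were listed and all 3 were lower, 1 without overlap. Over all listed genes, 17.6% were lower without overlap.

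**Figure D2:**
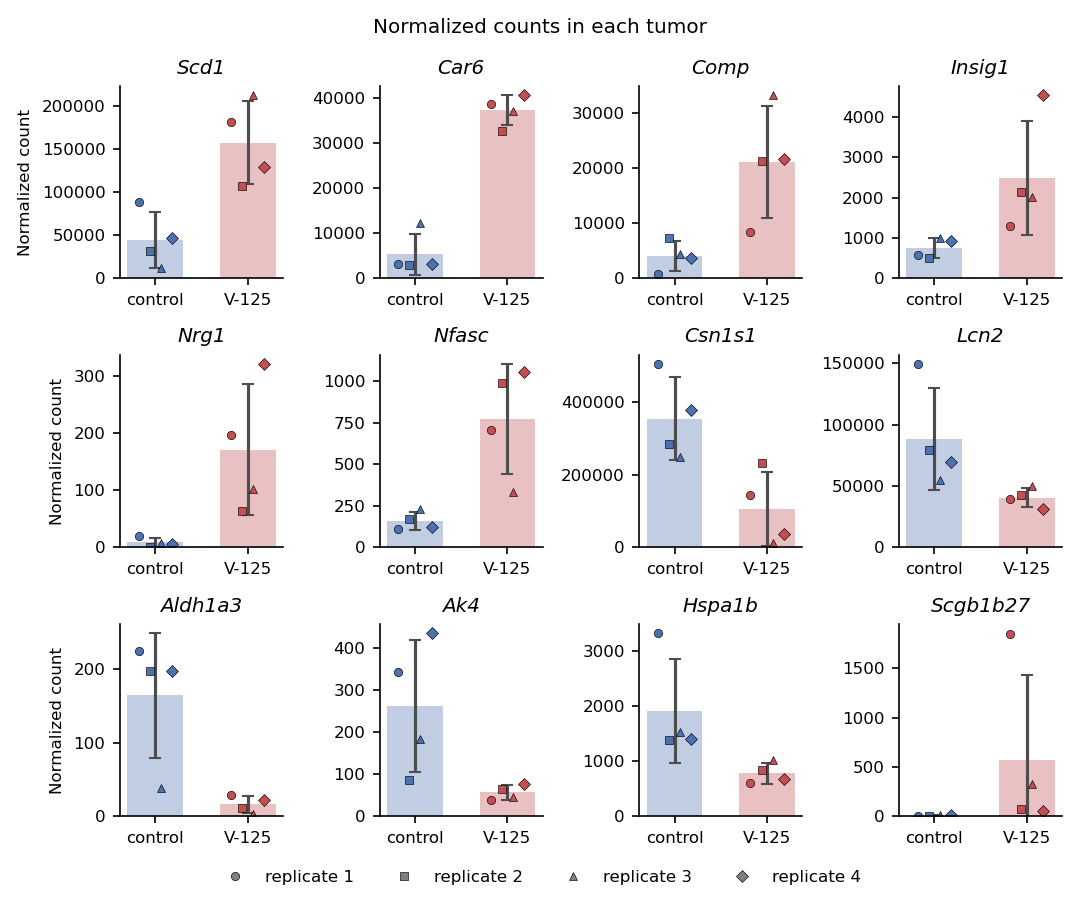
Bars show the mean normalized count of the 4 tumors in each group, error bars the SD (clipped at 0), and symbols the single tumors by replicate number, for 12 genes described in the text on linear axes from 0. Car6 sits between 32786 and 40669 in all V-125 tumors, while Scgb1b27 owes most of its V-125 mean to replicate 1, at 1844 normalized counts.

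Genes of fatty acid synthesis were higher together. Of 21 genes in the list, 11 were listed and all 11 had a higher mean after V-125. Of these, 9 did not overlap (9 of 11, against 21.1% of all listed genes). Calls were made for 5 of the 11, where 2.55% of all tested genes were called higher. The median log2 fold change of the 11 was 1.10, where the median over all tested genes with a higher mean was 0.78. Acacb, the acetyl-CoA carboxylase whose product restrains fatty acid oxidation, was at 1131, 539, 777 and 800.5 normalized counts after V-125 and at 245.6, 374.5, 275.5 and 340.6 in controls (log2 fold change 1.39 ± 0.25). Fasn, which builds palmitate, was at 12988, 20694, 19041 and 21867 against 11193, 6350, 8279 and 9473, a log2 fold change of 1.08 ± 0.23. For Fasn the separation was narrow, since V-125 replicate 1 lay near control replicate 1. The other called members were Acsl3, an acyl-CoA synthetase, at a log2 fold change of 1.33 ± 0.22, Mid1ip1, which promotes polymerization of acetyl-CoA carboxylase, at 1.31 ± 0.26, and Elovl6, a fatty acid elongase, at 1.28 ± 0.30. Acly and Acaca, which supply and carboxylate acetyl-CoA, were higher without overlap at log2 fold changes of 0.72 ± 0.20 and 0.99 ± 0.23, under the fold threshold. Fads2 and Acss2 were the 2 members whose groups overlapped.

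Cholesterol synthesis genes were listed almost in full. Of 20 genes, 17 were listed, all 17 with a higher mean after V-125 and log2 fold changes from 0.55 to 1.25, but only 2, Fdft1 and Tm7sf2, had groups that did not overlap, and none was called. Both counts are under the background, where 21.1% of listed genes were higher without overlap and 2.55% of tested genes were called higher. V-125 replicate 1 accounted for most of the overlap. The 17 genes had a mean log2(normalized count + 1) of 8.91, 9.73, 9.60 and 10.11 in the V-125 tumors and of 8.58, 8.55, 9.10 and 8.99 in the control tumors, so replicate 1 lay within the control range and the other V-125 tumors above it. Without V-125 replicate 1, left out after its values were seen, 14 of the 17 genes did not overlap. Over all 1589 listed genes, 759 did not overlap in that setting, counting either direction. Leaving out a tumor can only keep or raise such a count. Idi1, the isopentenyl diphosphate isomerase, had V-125 replicate 1 within the control range. It was at 309.6, 845.4, 609.7 and 1034 normalized counts after V-125 against 249, 195.4, 269.1 and 465.2 in controls. Acat2, which condenses acetyl-CoA at the head of the pathway, was the 1 member under an edgeR adjusted p of 0.05 (0.0425), with a log2 fold change of 0.92 ± 0.23.

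Of the list of SREBP regulation and sterol uptake, 2 of 13 genes were listed, both higher. Insig1 was called and did not overlap, at 1287, 2142, 2011 and 4531 normalized counts after V-125 and at 573, 516.7, 999.9 and 927.9 in controls (log2 fold change 1.72 ± 0.38). Outside the lists, 3 more called genes were picked out after their values were seen. Aacs, a cytosolic enzyme that activates acetoacetate for lipid synthesis, was called at 1.34 ± 0.28. Fabp5, a fatty acid binding protein, was called at 1.61 ± 0.36, and so was Gm6166, a processed pseudogene on chromosome 9 whose annotated transcript is 98.3% identical to a Fabp5 transcript over its 409 bases. Reads of such near-identical copies can be split between them by counting, so the Gm6166 value is uncertain.

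**Figure D3:**
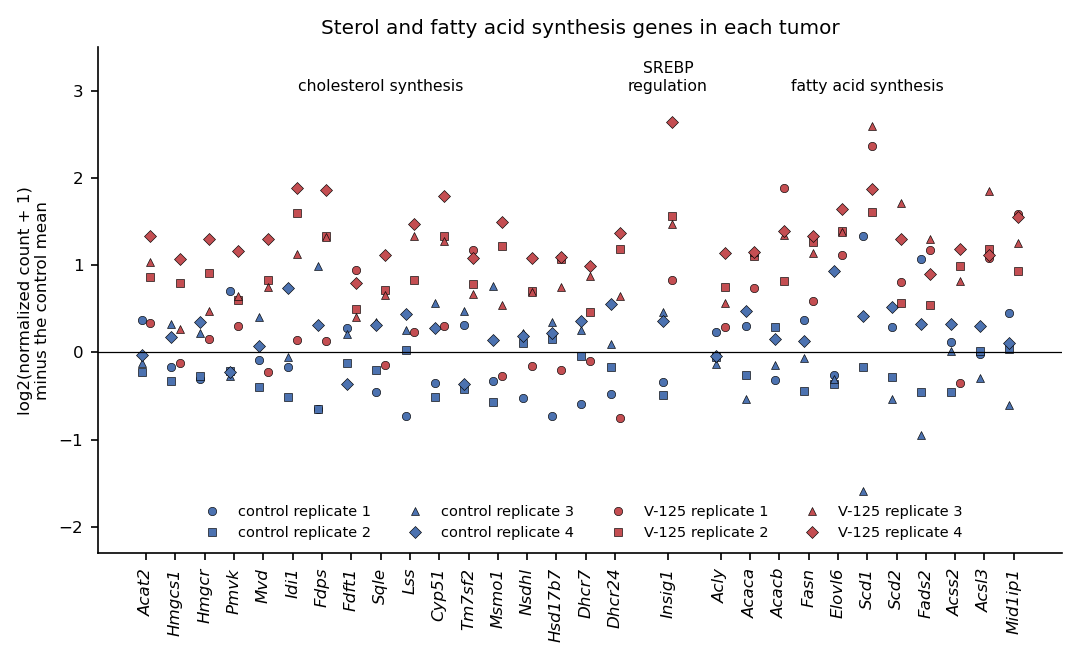
Each symbol is 1 tumor, placed by its log2(normalized count + 1) minus the mean of the 4 control tumors for that gene, with control tumors blue and V-125 tumors red. In the 17 cholesterol synthesis genes, V-125 replicate 1 (red circles) mostly lies among the control tumors, whereas in the 11 fatty acid synthesis genes the V-125 tumors are separate from controls except for Fads2 and Acss2.

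SREBPs act with factors such as NF-Y, which binds the CCAAT box, so the promoter windows of listed lipid genes (250 bases before to 50 after the start, RefSeq, GRCm38.p6) were searched on both strands. Windows were found for 12 of the 17 listed cholesterol genes, 9 of the 11 fatty acid genes and 1072 of the 1589 listed genes. CCAAT was present for 11 of the 12 cholesterol genes, 5 of the 9 fatty acid genes and Insig1, compared with 41.1% of all 27025 genes with a window and 41.5% of the listed genes. TCACNCCAC, a sterol response element, was present for Hmgcs1 alone among these and for 1.44% of all genes. Direct repeats of AGGTCA with 1 or with 4 bases between the copies, forms bound by RXR with a partner, were present for 13 and 4 genes with a window and for none of the listed genes. The 4 windows that show the matches follow in lower case, 5′ to 3′ along the gene's strand, with CCAAT (or its complement ATTGG) and, in Hmgcs1, TCACNCCAC in capitals. They are Hmgcs1, the synthase ahead of HMG-CoA reductase (chr13:119690101-119690400, plus strand, 4 CCAAT matches), Idi1 (chr13:8885356-8885655, plus strand, 2 matches), Insig1 (chr5:28071162-28071461, plus strand, 1 match) and Fasn (chr11:120824498-120824797, minus strand, 3 matches, 2 of which overlap).
Hmgcs1: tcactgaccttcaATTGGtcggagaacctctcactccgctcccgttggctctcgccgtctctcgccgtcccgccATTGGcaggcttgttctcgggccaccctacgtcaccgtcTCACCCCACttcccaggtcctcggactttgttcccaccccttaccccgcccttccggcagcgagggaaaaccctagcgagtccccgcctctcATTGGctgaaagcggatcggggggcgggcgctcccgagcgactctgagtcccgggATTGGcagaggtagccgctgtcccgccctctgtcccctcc
Idi1: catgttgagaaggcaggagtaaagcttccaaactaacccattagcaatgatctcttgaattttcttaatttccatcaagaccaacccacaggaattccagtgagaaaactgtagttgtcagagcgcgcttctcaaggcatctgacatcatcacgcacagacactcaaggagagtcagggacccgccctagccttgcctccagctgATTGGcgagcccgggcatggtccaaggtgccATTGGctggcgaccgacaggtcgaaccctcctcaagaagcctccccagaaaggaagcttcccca
Insig1: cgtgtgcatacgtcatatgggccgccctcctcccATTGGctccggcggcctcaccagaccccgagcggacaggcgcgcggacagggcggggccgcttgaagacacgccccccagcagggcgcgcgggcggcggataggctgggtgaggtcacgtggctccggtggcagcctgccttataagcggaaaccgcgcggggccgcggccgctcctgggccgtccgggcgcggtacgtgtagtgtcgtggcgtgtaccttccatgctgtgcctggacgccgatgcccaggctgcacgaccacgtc
Fasn: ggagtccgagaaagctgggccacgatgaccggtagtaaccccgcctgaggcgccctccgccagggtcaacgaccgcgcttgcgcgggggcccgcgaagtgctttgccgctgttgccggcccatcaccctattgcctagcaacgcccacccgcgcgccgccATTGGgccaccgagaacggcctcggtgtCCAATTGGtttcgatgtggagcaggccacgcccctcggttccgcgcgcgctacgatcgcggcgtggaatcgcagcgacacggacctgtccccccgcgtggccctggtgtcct
Each match is a run of letters in a window and was not tested for binding.

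Other lipid groups were represented by fewer genes. Over all listed genes, 21.1% were higher without overlap. For fatty acid oxidation, 3 of 17 genes were listed, all 3 higher without overlap and none called. Cpt1a, which brings fatty acids into mitochondria, had a log2 fold change of 0.72 ± 0.27, and the peroxisomal Ehhadh one of 0.60 ± 0.22. Of 23 triglyceride and lipid droplet genes, 6 were listed and 5 were higher, 3 of these without overlap (Gpam, Pnpla3 and Mgll). Of 12 PPAR targets 3 were listed, all higher, Cpt1a among them, and of 15 LXR targets 4 were listed, all higher, including Scd1 and Lpcat3, a phospholipid acyltransferase (log2 fold change 0.59 ± 0.16, no overlap). The other 2 LXR targets, Pltp and Apoc4, were highest in V-125 replicate 1, where Pltp stood at 982.1 normalized counts against 26.4 to 128.2 in the other V-125 tumors.

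In retinoid metabolism, 4 of 26 genes were listed. Aldh1a3, which makes retinoic acid from retinaldehyde, was called lower, at 28.6, 11.4, 2.98 and 22.2 normalized counts after V-125 and at 223.7, 196.5, 39.1 and 196.3 in controls (log2 fold change -3.32 ± 0.71). The groups did not overlap, although control replicate 3 lay close to the V-125 tumors. Rdh11, Rarres2 and the receptor gene Rxrg had higher means with overlap, and Rxrg was counted only in V-125 replicates 1 and 2, at 24.5 normalized counts or fewer. Another aldehyde dehydrogenase, the mitochondrial folate enzyme Aldh1l2, was called lower at -1.61 ± 0.40, and was the 1 listed gene of 27 for serine, one-carbon and amino acid response.

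Several called increases lay outside lipid metabolism. Nrg1, which encodes the ERBB ligand neuregulin, was at 197.2, 63.6, 103.3 and 321.5 normalized counts after V-125 and at 19.6, 1.16, 7.19 and 6.83 in controls. The groups did not overlap, and the log2 fold change of 4.30 ± 0.75 rests on control tumors with few reads. Egf, another growth factor of this family, had a higher mean with overlap (0.85 ± 0.29), and the other 15 of 17 ERBB ligands and receptors in the list were not listed. Nfasc, a cell adhesion protein of axons, was at 708.2, 991.7, 333.6 and 1059 against 109.5, 172.2, 231.6 and 124.6, a log2 fold change of 2.27 ± 0.39. Chil1, a secreted chitinase-like glycoprotein, was called at 1.67 ± 0.38 and Lrrc26, an auxiliary subunit of BK potassium channels, at 1.32 ± 0.29, both without overlap. Rnf144b, an E3 ubiquitin ligase, ranged from 99.4 to 172.9 normalized counts after V-125 and from 34.6 to 64.7 in controls (1.66 ± 0.32). Dpp10, a modulator of neuronal potassium channels, was called at 3.07 ± 0.79 although its groups overlapped, with 1015, 541.4, 446.8 and 81.4 after V-125 and 1 control tumor at 151.4.

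Endothelial genes divided by direction. Of 29 endothelial markers 13 were listed, 10 with a higher mean after V-125 (6 without overlap) and 3 lower (all 3 without overlap), against 21.1% and 17.6% of listed genes without overlap in each direction. Among the higher ones, Kdr, the main VEGF receptor, was at 538.5, 834.9, 793.4 and 775.1 normalized counts after V-125 and at 251.3, 453.1, 428.9 and 497.7 in controls, a log2 fold change of 0.85 ± 0.24. Plvap, which forms the diaphragms of fenestrated vessels, and Epas1, the hypoxia-inducible factor 2 alpha gene, were higher without overlap at 0.76 ± 0.18 and 0.68 ± 0.18, both under an edgeR adjusted p of 0.05 but below the fold threshold. Aplnr, the apelin receptor, was higher at 1.10 ± 0.36 with 1 control tumor inside the V-125 range.

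The 3 lower endothelial genes were 2 vascular ligands and Grrp1. Apln, the ligand of that receptor and a gene of sprouting tip cells, was called, at 51.1, 76.9, 83.4 and 74 normalized counts after V-125 and at 108.4, 173.4, 180.5 and 379.9 in controls (log2 fold change -1.56 ± 0.39). Angpt2, the TIE2 ligand made by remodeling vessels, was at 83.8, 66.5, 59.6 and 38.1 against 93.4, 114.4, 163.7 and 241.6 (-1.31 ± 0.38). The general endothelial markers Pecam1, Cdh5 and Tek were not listed. The mean log2 level of the 13 listed markers overlapped between groups. Their summed normalized counts, most of which came from the 10 higher genes, did not overlap, at 7657, 7106, 6924 and 6152 after V-125 and at 3916, 4930, 4413 and 5648 in controls. The share of endothelial cells in a tumor was not measured. The endothelial surface genes Ly6c1 and Cd300lg, named here after their values were seen, were both called higher, at 1.23 ± 0.21 and 1.46 ± 0.30.

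All 7 listed genes of 22 induced by hypoxia had lower means after V-125, 2 of them without overlap (Car9 and Kdm3a), where 17.6% of all listed genes were lower without overlap. Car9, the membrane carbonic anhydrase of hypoxic tumor cells, was called, at 227.9, 302.1, 296.9 and 409.2 normalized counts against 824.3, 500.5, 424.1 and 767.4 (log2 fold change -1.03 ± 0.27). The highest V-125 tumor lay just below the lowest control tumor. The mean log2 level of the 7 genes was 9.17 to 9.53 in V-125 tumors and 9.66 to 10.43 in controls. Ak4, an adenylate kinase of mitochondria, was called lower at -2.20 ± 0.49, from 86.7 to 436.2 in controls to 38.8 to 77.2 after V-125. Of 16 glycolysis genes 4 were listed, 2 in each direction, and all 4 overlapped between groups.

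**Figure D4:**
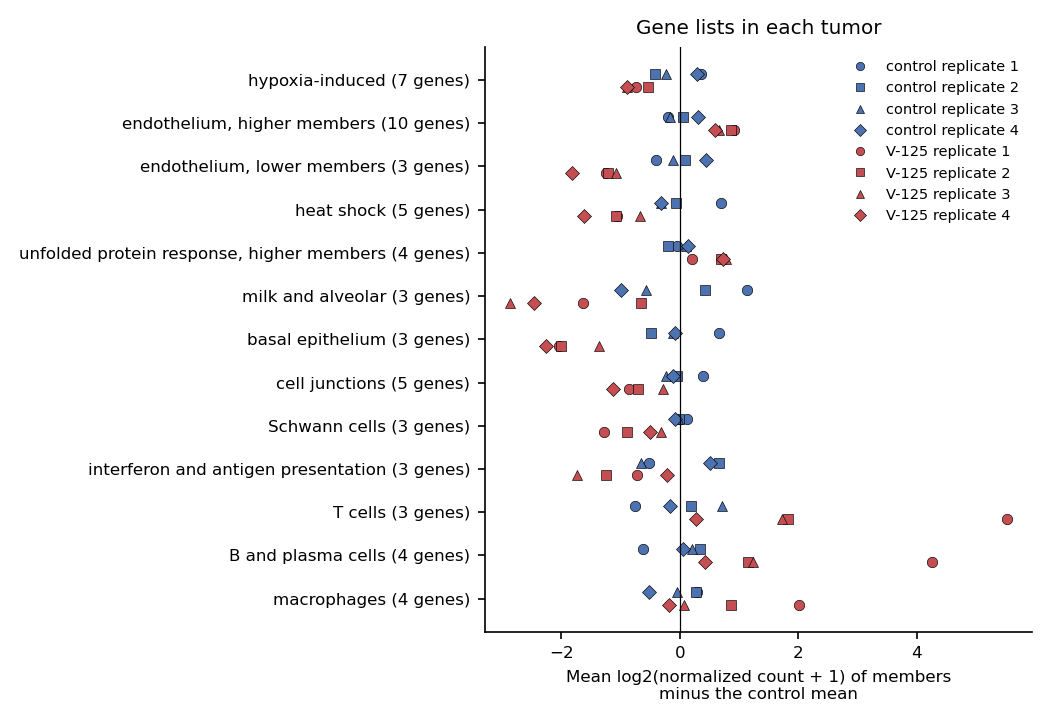
Each symbol is 1 tumor, placed by its level, log2(normalized count + 1) averaged over the members of a gene list, minus the mean of the 4 control tumors, with control tumors blue and V-125 tumors red. The mean levels of the listed hypoxia, heat shock and basal epithelium genes are lower in all 4 V-125 tumors than in any control tumor, while the T cell, B cell and macrophage lists are highest in V-125 replicate 1.

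Of 22 heat shock genes 5 were listed, all with lower means, and 2 of them did not overlap and were called. Over all genes, 17.6% of those listed were lower without overlap and 2.4% of those tested were called lower. Hspa1b, an inducible HSP70 chaperone, was at 601.9, 849.2, 1025 and 670.4 normalized counts after V-125 and at 3327, 1384, 1540 and 1402 in controls (log2 fold change -1.28 ± 0.31). Its neighbor Hspa1a was lower at -1.62 ± 0.40, but the transcripts of these genes are 99.1% identical over 2200 aligned bases, so their reads cannot be fully assigned to one or the other. The small chaperones Hspb1 and Cryab and the mitochondrial cofactor Hspe1 had lower means with overlap. In the unfolded protein response, 5 of 18 genes were listed. Sel1l and Edem1, of endoplasmic reticulum degradation, were higher without overlap, at log2 fold changes of 0.82 ± 0.23 and 0.35 ± 0.14. Xbp1, a transcription factor of that response, was lower without overlap, at -0.44 ± 0.18.

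Few epithelial genes were listed, and none of the listed members was called. All 3 listed basal markers of 11 had lower means with overlap, namely the smooth muscle actin Acta2, the p63 gene Trp63 and Lgals7, at log2 fold changes of -1.40 ± 0.53, -2.20 ± 0.85 and -1.43 ± 0.74. Averaged over the 3 genes, the mean log2 level was 4.99 to 5.88 in V-125 tumors and 6.76 to 7.91 in controls, without overlap, and V-125 replicate 1 had no reads for Trp63. Krt5 and Krt14 were not listed. All 5 listed genes of 29 for cell junctions were lower. Of these, 2 did not overlap, the tight junction genes Cldn4 and Ocln, where 17.6% of all listed genes were lower without overlap. Cldn10, a claudin outside the cell junction list that was chosen after its values were seen, was called higher at 1.61 ± 0.43. Among 13 luminal markers 5 were listed. Epcam was lower without overlap (-0.40 ± 0.18), Cdh1 and Kit were lower with overlap, and the hormone receptor genes Esr1 and Prlr were higher with overlap, none of them called.

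The listed members of the T cell, B and plasma cell and macrophage lists had higher means after V-125, with the highest levels in V-125 replicate 1. Outside these lists, the 1 listed T cell receptor constant gene had a lower mean after V-125. Of 33 T cell genes, Cd2, Cd28 and Icos were listed, with higher means but too few reads to be tested, and Cd2 stood at 195.2 normalized counts in V-125 replicate 1, 3.17 to 23.8 in the other V-125 tumors and 0 to 5.59 in controls. The 4 listed of 17 B and plasma cell genes (Igkc, Mzb1, Pou2af1 and Bank1) and the 4 listed of 26 macrophage genes (Fcgr1, Mertk, Cx3cr1 and Clec10a) also had higher means. Of these 11 genes none was called or free of overlap. The mean log2 level of the B and plasma cell genes nevertheless separated the groups, at 7.46, 4.37, 4.44 and 3.64 after V-125 and at 3.55 or less in controls, with V-125 replicate 4 close to the highest control tumor. The mean log2 level of the macrophage genes was 8.84 in V-125 replicate 1, 6.65 to 7.69 in the other V-125 tumors and 6.31 to 7.11 in controls. Without V-125 replicate 1, the difference in mean log2 level went from 2.34 to 1.28 for the T cell genes, from 1.77 to 0.94 for the B and plasma cell genes and from 0.69 to 0.25 for the macrophage genes. The defining markers Cd3e, Cd79a, Adgre1 and Csf1r were not listed, nor was any of 16 neutrophil and monocyte or 12 dendritic cell genes.

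Inflammatory genes with lower means included all 3 listed of 31 interferon and antigen presentation genes. Of these Gbp3, an interferon-induced GTPase, did not overlap, at 359.7, 222.3, 173.8 and 362.7 normalized counts against 427.7, 833.5, 440.9 and 834 (log2 fold change -1.18 ± 0.33). Tnf and Cxcl2 were the 2 listed of 27 NF-kB and cytokine genes, both lower and both with few reads, Cxcl2 at 0 in 3 of the 4 V-125 tumors. Of 24 immediate early genes 5 were listed, with Jun and Ier3 lower and Dusp2, Nr4a2 and Klf2 higher. Only Nr4a2, an orphan receptor that can pair with RXR, had groups that did not overlap (0.67 ± 0.26).

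Matrix genes differed in both directions. Of 32 genes 6 were listed, with Comp called higher and Hapln3, a link protein of hyaluronan matrices, called lower at -2.34 ± 0.60. Of all tested genes, 2.55% were called higher and 2.4% lower. Hapln3 (chr7:79115102-79131018) lies close to Mfge8 (chr7:79133768-79149060) on the same strand, and how reads were divided between them was not tested. Lama3, a laminin chain, was higher without overlap (1.14 ± 0.36), and Tnc and Serpine2 had lower means with overlap. Col12a1, a collagen that coats fibrils, was the 1 listed gene of 22 for fibroblasts and collagens, and was called lower, at 497.7, 410.3, 339.6 and 157.6 normalized counts against 717.1, 976.8, 657.3 and 1066. The major fibrillar collagens and Pdgfra were not listed. Of 40 axon guidance genes 10 were listed, 5 in each direction, and 3 higher members did not overlap, a smaller share than the 38.6% of all listed genes without overlap in either direction. One of them, Sema4d, a semaphorin that signals through Plxnb1, was among the most even differences, at 4722 to 5287 in V-125 tumors and 2463 to 3196 in controls (0.80 ± 0.14, edgeR adjusted p = 0.0386). Plxnb1, its receptor gene, had a lower mean with overlap (-0.68 ± 0.25).

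Small lists gave little. All 3 listed genes of 28 for the cell cycle, Mcm2, Mcm4 and Ccnd1, had higher means with overlap and log2 fold changes of 0.55 or less. Ccng1 was the 1 listed of 13 p53 targets, higher with overlap. The adipocyte gene Lipe was higher without overlap (0.68 ± 0.21) while the other 13 of 14 adipocyte markers were not listed. All 3 listed genes of 8 in the Schwann cell list were lower, 2 without overlap (S100b and Sox10). Over all listed genes, 17.6% were lower without overlap. Sox10 was at 12029 normalized counts or more in every tumor, and which cells expressed it was not tested. The pericyte gene Mcam (1 of 9) and the 2 listed of 7 erythroid genes were lower with overlap, and the 2 listed of 19 muscle genes, Myh4 and Mb, differed in direction and overlapped.

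Neighboring genes on chromosome 1 were higher together. Their region was picked out after the values were seen, and its bounds are those of the listed genes in it. Within these 746 kb (chr1:84963669-85709998, coordinates as deposited), 9 genes were listed, all higher after V-125 and all highest in V-125 replicate 1. They comprise Sp100, a nuclear body gene, and 8 genes beside it with clone or predicted-gene symbols, 2 of which were called. Of all tested genes, 2.55% were called higher. Among the 555 more abundant higher genes described below, V-125 replicate 1 was the highest V-125 tumor in 42.2%. Because the region was chosen from the same values, its counts cannot be set against these shares. Gm16025 was at 659.1, 113, 94.3 and 457.9 normalized counts against 34.6, 39.3, 53.5 and 17.9 (log2 fold change 3.18 ± 0.67) and Gm15433 at 353.6, 78.8, 97.3 and 194.6 against 21.9, 62.4, 25.6 and 17.9. Summed over the 9 genes, the tumors stood at 2510, 517.7, 597.8 and 1382 after V-125 and at 275.5, 556, 364.2 and 378.2 in controls, so V-125 replicates 1 and 4 were high and replicates 2 and 3 were near the highest control tumor. Genes here overlap and include related copies, and how their reads were divided was not tested.

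A second pair of neighbors was Scgb1b27 and Scgb2b27, secreted secretoglobins 7540 bases apart on chromosome 7. Scgb1b27 had the largest log2 fold change of the called genes with a mean of 100 or more in the higher group, 5.93 ± 1.31, but V-125 replicate 1 held 1844 normalized counts, against 52.9 to 324.7 in the other V-125 tumors and 0 to 17.6 in controls. Scgb2b27, named here after its values were seen, was at 27005 in that tumor, 3109 to 5143 in the other V-125 tumors and 670.1 to 2539 in controls. Both genes were therefore above every control tumor also in replicates 2 to 4.

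Further genes were called lower. The long intergenic RNA C530043A13Rik was the most abundant of them, at 9752, 9177, 9317 and 12368 normalized counts after V-125 and at 35029, 18047, 17542 and 22660 in controls (log2 fold change -1.20 ± 0.24). Kcne3, a potassium channel subunit, was lower at -1.79 ± 0.48, Sarnp, an mRNA export factor, at -1.62 ± 0.34, Cda, cytidine deaminase, at -1.33 ± 0.36, 2610528A11Rik at -1.66 ± 0.42 and the long non-coding RNA C430042M11Rik at -1.41 ± 0.33, all without overlap. By annotated class, 709 of 1313 listed protein-coding genes were higher, as were 31 of 61 long intergenic RNAs. Antisense RNAs (17 of 51), processed pseudogenes (17 of 47) and loci of the provisional class TEC (6 of 42) were more often lower among listed genes. The median level of TEC loci was 5.54 normalized counts, so they rest on few reads, and strand was not stated for the counting, which leaves antisense reads and reads of the opposite gene unseparated. All 6 listed mitochondrial genes were lower, 3 without overlap, where 17.6% of all listed genes were lower without overlap. However, a poly(A) library holds ribosomal and transfer RNA such as mt-Rnr1 and mt-Tp only in part.

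The tumors within each group differed in how they contributed. Among 555 higher genes with a mean of 100 or more in a group, V-125 replicate 1 was the highest V-125 tumor in 234 genes and replicate 4 in 189, against 76 for replicate 2 and 56 for replicate 3. Among 514 such lower genes, control replicate 1 was the highest control tumor in 230, replicate 2 in 129, replicate 4 in 101 and replicate 3 in 54. Leaving out 1 tumor at a time, between 704 and 855 listed genes did not overlap, compared with 614 for all tumors. Such a count can only stay the same or rise when a tumor is left out, so the rise is not a result.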

How the data were processed

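Poly(A) RNA of 12 mouse mammary tumors was sequenced, and the 4 V-125 and 4 control tumors were compared here. STAR 2.6.1d, featureCounts 1.5.0-p3 and limma are named in the submitters' processing notes. The genome build is not given in the sources used here. Of 1589 gene identifiers, 1583 were in GENCODE M21 (GRCm38) and 1532 had the same coordinates. The authors deposited raw read counts per gene and tumor, normalized counts (a signal, the count over a size factor set for each tumor) and FPKM (counts scaled by gene length and by the reads on genes). Their fold changes and p-values were deposited for the same genes and were not used. Replicates are separate mice per the study's methods.

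The read counts were fitted in edgeR 4.0.16 and R 4.3.3 (quasi-likelihood test after filterByExpr, library scaling fixed to the authors' size factors, Benjamini-Hochberg adjustment over the 1333 tested genes). The standard error is the absolute log2 fold change divided by the square root of F. Variance was estimated from genes selected for their difference. Alternatives were DESeq2 1.42.0, limma-voom 3.58.1, other scalings, filters and thresholds, a block for the replicate number, and fits without each tumor in turn. Tables were made with Python 3.11.15, numpy 2.4.6 and pandas 2.3.3, and transcripts were aligned with blastn 2.17.0.

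The members and gene lists were chosen with earlier results of these data known. Named genes are the 10 largest log2 fold changes in each direction among called genes without overlap and with a mean of at least 100 normalized counts in the higher group, the 8 largest gains and losses in mean CPM, up to 4 called members per list, up to 6 called genes with the largest share in 1 tumor, and Nrg1, Nfasc, Chil1 and Lrrc26. Other members of the lists are named to describe their list. A few listed genes are left unnamed and are not reported here.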

Additional observations from a re-analysis of the deposited data

Results flagged for a closer look

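Among the 44 named genes, 88 groups of 4 tumors were checked for 1 tumor far from the other 3 in normalized count, and 10 were found. For normally distributed values, chance alone flags about 1 in 20 groups, but normalized counts need not follow that distribution. Genes of 1 tumor are also not independent. Some named genes, such as Scgb1b27 and Dpp10, were picked for a large share in 1 tumor, so the 10 cannot be set against that rate. In V-125 tumors these were Scgb1b27 in replicate 1 (1844, others 52.9 to 324.7), Aldh1l2 in replicate 2 (69.3, others 27.8 to 33.8) and Acsl3 in replicate 3 (1559, others 919.7 to 986).

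In control tumors the high values were Car6 in replicate 3 (12218, others 2921 to 3298), Chil1 in replicate 1 (4715, others 1398 to 1961), Elovl6 in replicate 4 (1235, others 502.9 to 540.7), Hspa1b in replicate 1 (3327, others 1384 to 1540) and Dpp10 in replicate 2 (151.4, others 24.8 to 46.1). The low values were Aldh1a3 in replicate 3 (39.1, others 196.3 to 223.7) and 2610528A11Rik in replicate 2 (83.2, others 166 to 171.7). Control replicate 3 thus lay toward the V-125 tumors for both Car6 and Aldh1a3, and control replicate 1 stood farthest from them for Hspa1b.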

How the results depend on the processing

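Of the 66 called genes, 34 were higher and 32 lower. DESeq2 called 375 (199 higher, 176 lower), an unadjusted p under 0.05 with the fold threshold gave 368 (195 and 173), and dropping the fold threshold gave 120 (68 and 52). Adjustment over as many tests as annotated protein-coding genes gave 0 in either direction, with the variance still taken from the listed genes alone. Leaving out 1 tumor gave 0 to 148 calls (0 to 71 higher, 0 to 77 lower). Limma-voom, total-read scaling, TMM and no filter on low counts stayed within 1.5 times of each count, and the scalings moved the median log2 fold change by -0.0015 and -0.0448. The called genes were not always the same. Total-read scaling shared all 66, TMM 62 of its 65, no filter 61 of its 71 and limma-voom 51 of its 76. Without V-125 replicate 1, 41 of 72 called genes were shared with the 66, and without V-125 replicate 3, 38 of 67. Genes without overlap numbered 614 and, leaving out 1 tumor, 704 to 855, and the 279 lower ones became 306 to 437, the highest value without control replicate 3. These counts cannot fall when a tumor is left out, so their rise does not measure stability.

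Replicate numbers are shared by both groups, but same-numbered tumors come from different mice and the correlations of their deviations from the group means ran from -0.19 to 0.12, with 1 of 4 V-125 tumors closest to its own number, so the numbers do not pair the tumors. With the number as a replicate block edgeR called 15 genes (14 higher, 1 lower), 11 of them among the 66.

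Over 572 refits of 44 named genes the direction was kept in each, 358 kept the same side of the threshold, 201 lost the call and 13 gained it. Many of these genes were named because their groups did not overlap, so the kept direction was largely settled by the selection. Lists without V-125 replicate 1 were added after seeing the data. Depth limits genes with few reads, such as the T cell genes, and the listed genes alone cannot show what did not differ.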
